A study of Homo sapiens with 12 samples.

Results

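The interaction of doxorubicin and IN10018 was measured for each gene as its level in combination-treated cells minus its level with doxorubicin alone, minus its level with IN10018 alone, plus its level in DMSO. Levels were log2(FPKM + 1), where FPKM are fragments per kilobase of transcript scaled to the size of the library, so a contrast of 0 means that the effects of both drugs add up on the log scale. All 12 libraries of the series entered this 2 by 2 design. Of 59391 genes, 11301 were tested, namely those that reached 1 FPKM in 3 or more libraries. Because the contrast was above 0 for most genes, each gene was described by its departure from additivity, which is its contrast minus the median contrast of all genes tested. Functions were compared through 57 gene lists, of which 56 had at least 8 genes tested, and the 7 with the highest and the 7 with the lowest median departure are described in full.

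The cells were SK-OV-3, an established human ovarian cancer line with amplified ERBB2. They were kept for 24 h with the combination of doxorubicin at 300 nM and IN10018 at 3 μM, with doxorubicin alone, with IN10018 alone or with DMSO, the solvent of the drugs. Each treatment had 3 libraries, and the labels do not say whether these came from separate cultures, so every p-value measures the spread between these libraries only.

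Doxorubicin is an anthracycline that traps topoisomerase II on DNA and leaves double-strand breaks, which activate checkpoint kinases and stress responses. IN10018 inhibits focal adhesion kinase (FAK, encoded by PTK2), a tyrosine kinase at integrin contacts that passes signals for spreading, survival and entry into the cell cycle. Drugs that act on a gene independently multiply its level, which is additive on the log scale. With the median of all genes taken off, a positive departure marks a gene higher with the combination than the single treatments predict, and a negative one a gene lower than predicted.

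The libraries held 8033951 to 12901505 reads. DMSO library 2, IN10018 library 1 and combination library 2 stood apart from the others of their treatments along 1 axis, which held 55.4% of the variance within treatments. Among the markers looked up for this line, ERBB2 stood at 46.1 to 145.7 FPKM and KRT7 at 107 to 368 FPKM. Lower were PAX8 at 2.78 to 7.64 FPKM, MSLN at 1.95 to 7.67, EPCAM at 2.29 to 5.54 and MUC1 at 0.592 to 1.43. WT1 stayed at or below 0.0839 FPKM. Of 15 markers of blood, endothelial, muscle, liver and neural cells, 14 stayed at or below 1.05 FPKM in all 12 libraries. The exception was LYZ, the lysozyme gene, at 1.72, 0.308 and 0.220 FPKM in combination libraries, 3.22, 12.7 and 7.37 in doxorubicin libraries, 2.33, 4.02 and 0.349 in IN10018 libraries and 0.273, 0.750 and 0.422 in DMSO libraries.

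The contrast had a median of 0.24 over the 11301 genes, and 8764 of them lay above 0. No gene was called at an adjusted p under 0.05 (0% of genes tested; limma with Benjamini-Hochberg adjustment), and limma-voom on the recovered reads called 0 as well. The smallest adjusted p was 0.376, for AC068631.3, a processed pseudogene with a negative contrast, which was called under median-ratio scaling (adjusted p = 0.0101, limma). Without adjustment, 537 genes had a positive contrast with p under 0.05 (4.75%) and 152 a negative one (1.35%). The median standard error was 0.30, which is above the contrast of most genes. The distribution of departures leaned to the negative side, with 229 genes at 0.5 or more (2.03%) and 1241 at −0.5 or less (11%). A departure kept its sign in all 81 choices of 1 library per treatment in 41 genes on the positive side (0.363%) and in 232 on the negative side (2.05%). The contrasts of the genes named below are therefore descriptions, since none passed the adjustment and their smallest adjusted p was 0.684. For genes chosen by the size of their departure, the single drug effects printed below are parts of the same contrast. The p-values of those effects are favoured by that choice and are descriptions too. Lists described in full were likewise chosen by their median departure. Counts of their members on the contrast and on its single drug effects are favoured by that choice. Members of a list share the libraries and are not independent, so these counts are descriptions.

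The size of the median contrast depended on how libraries were scaled. Median-ratio scaling gave a median contrast of 0.03 and quantile normalization 0.05, and with median-ratio scaling the unadjusted counts were 182 positive and 330 negative. Departures are given relative to the median for this reason. Without the 3 libraries that stood apart, 2491 genes were positive and 524 negative at an unadjusted p under 0.05, and 0 were called. These libraries were picked from the same data by their place on that axis, so leaving them out narrows the spread behind the p-values. On the axis, combination library 2 scored 25.3 and combination library 1, which was kept, −21.7.

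The interaction can be read as the doxorubicin effect in cells with IN10018 minus the effect in cells without it, and these effects share no library. With IN10018, doxorubicin raised 1653 genes (14.6%) and lowered 162 (1.43%) at an adjusted p under 0.05. Without IN10018, it raised 669 (5.92%) and lowered 237 (2.1%). Unadjusted, 2977 were higher (26.3%) and 440 lower (3.89%) with IN10018, and 1568 higher (13.9%) and 967 lower (8.56%) without it. The total of 1815 called with IN10018 dropped to 881 without combination library 3. The total of 906 called without IN10018 lay between 363 and 476 when any doxorubicin library, DMSO library 1 or DMSO library 3 was left out. The 669 genes raised by doxorubicin alone had a median log2 change of 1.10 with IN10018 present, and 658 of them were above 0 there (98.4%, against 69.7% of all genes). Their median of 1.01 without IN10018 comes from the contrast that chose them. Over the 11301 genes these effects had a Pearson r of 0.70 and a Spearman rho of 0.67, a description across genes, which are not independent and share the libraries of each contrast. The larger count with IN10018 present goes together with a median doxorubicin effect of 0.20 there and −0.01 without IN10018.

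The same interaction is the IN10018 effect in doxorubicin-treated cells minus the effect in cells without doxorubicin. Here the effects had a Pearson r of 0.06 and a Spearman rho of 0.11 across genes. Both effects had a median standard error of 0.21, and limma called at most 1 gene in either. These correlations therefore cannot tell differing effects from noise. With doxorubicin, IN10018 changed 0 genes at an adjusted p under 0.05 by limma and 2 by limma-voom, and at an unadjusted p under 0.05 it raised 1546 (13.7%) and lowered 232 (2.05%). Without doxorubicin, it raised 1 gene, SCD (0.00885%), and lowered 0, with 170 higher (1.5%) and 244 lower (2.16%) unadjusted. The 244 genes lower with IN10018 alone had a median log2 change of 0.10 with doxorubicin present, where the median of all genes was 0.23, and 87 of them were also lower there (35.7%, against 18.8% of all genes). Their median of −0.55 without doxorubicin comes from the contrast that chose them. The 170 genes higher with IN10018 alone had a median log2 change of 0.30 with doxorubicin present. Of these, 129 were above 0 there (75.9%, against 81.2% of all genes). The count of 0 depended on which libraries were kept and how they were weighted, with 676 genes called without combination library 1, 1321 without the 3 libraries that stood apart and 2262 with array weights.

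**Figure D1:**
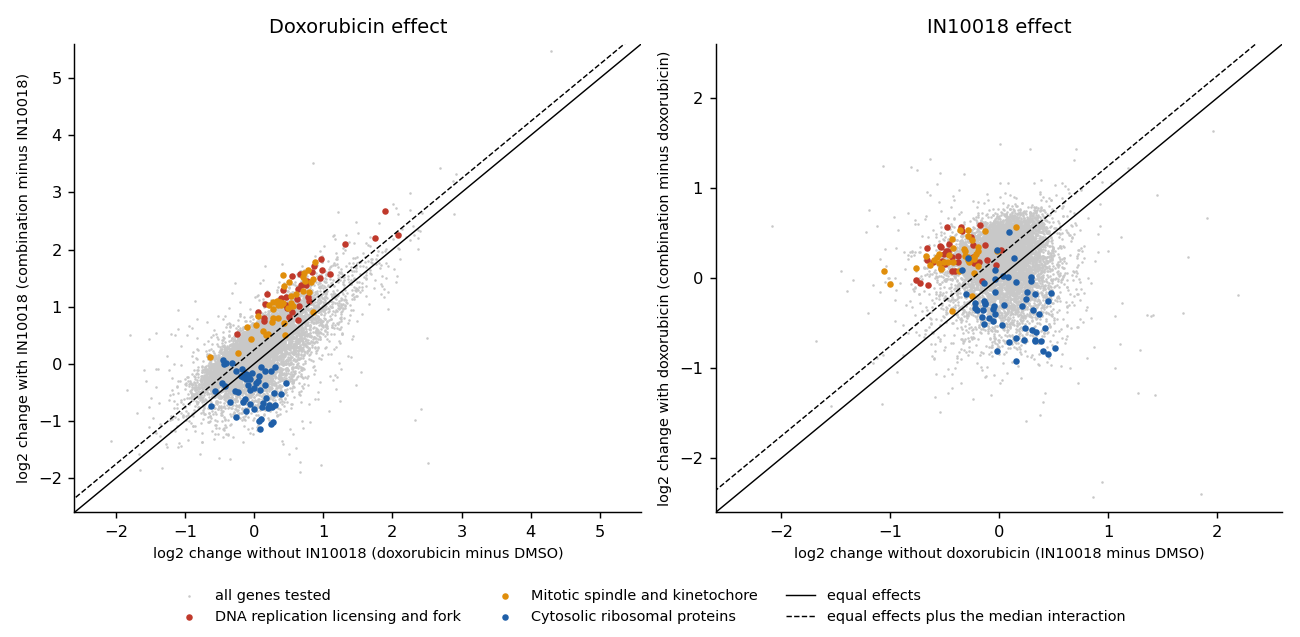
The left panel plots each gene's log2 doxorubicin effect with IN10018 (y axis) against the effect without it (x axis), and the right panel the log2 IN10018 effect with doxorubicin (y axis) against the effect without it (x axis). Grey points are the 11301 genes tested, coloured points are members of 3 lists, the solid line marks equal effects and the dashed line lies 0.24 above it; replication and mitotic genes sit mostly above the dashed line and ribosomal protein genes mostly below the solid one.

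The lists with the highest median departure were those of DNA synthesis and cell division. DNA replication licensing and fork genes stood at 0.43, mitotic spindle and kinetochore genes at 0.40 and G2 entry control genes at 0.37. They were followed by mitochondrially encoded respiratory genes at 0.33, tubulins and their chaperones at 0.26, hypoxia response genes at 0.19 and deoxynucleotide supply genes at 0.16. The lowest were cytosolic ribosomal protein genes at −0.60, replication-dependent histones at −0.53 and small nucleolar RNA host genes at −0.51. Nuclear encoded respiratory genes stood at −0.24, the BCL2 family at −0.20, sterol synthesis and uptake genes at −0.18 and epithelial keratins and junctions at −0.11. The other 42 lists with at least 8 genes tested had medians between −0.09 and 0.16.

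**Figure D2:**
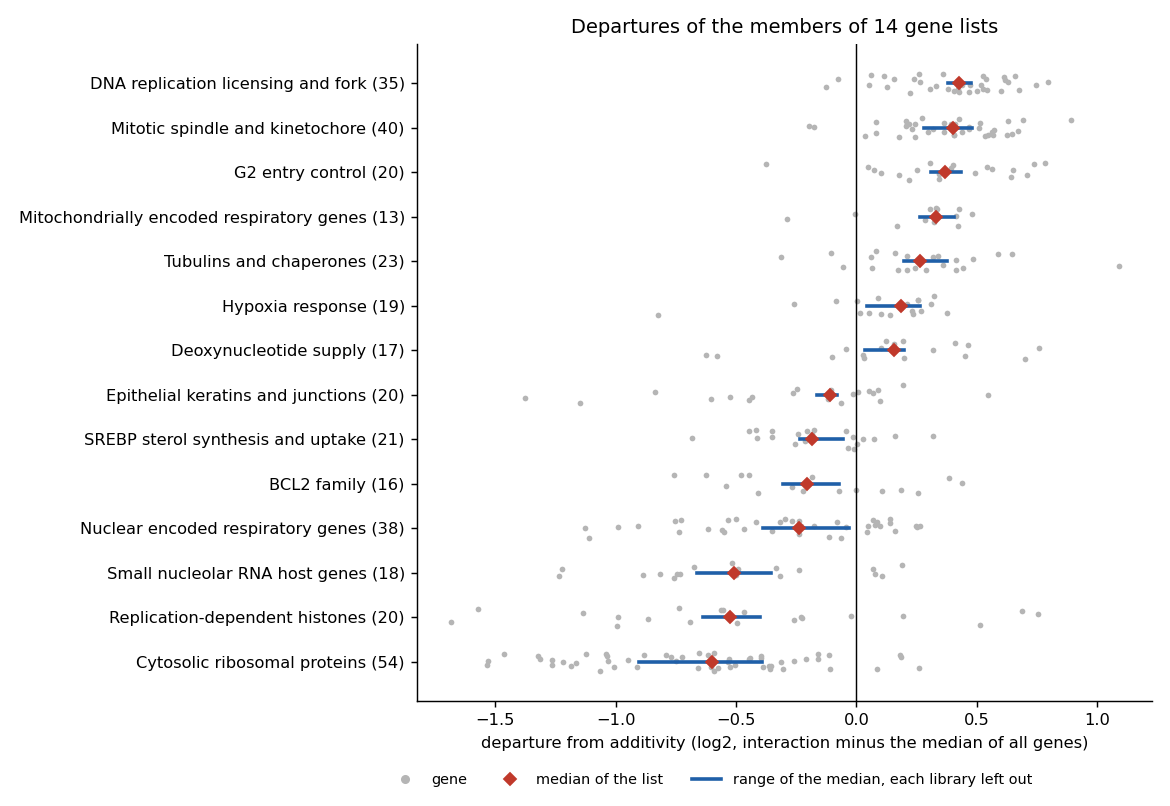
Departure from additivity (x axis, log2) of the genes of 14 lists, with the number of genes tested in brackets. Grey points are genes, diamonds are list medians and blue lines span the medians found when each library was left out in turn; DNA replication genes sit highest at a median of 0.43 and ribosomal protein genes lowest at −0.60.

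The DNA replication list holds the proteins that license origins and move the fork. Of its 35 genes, 33 lay above the median of all genes, 14 had a departure of at least 0.5 and 0 one of −0.5 or less, against 2.03% and 11% of all genes. At an unadjusted p under 0.05, 21 of the 35 were positive and 0 negative, against 4.75% and 1.35% of all genes. After adjustment, 0 of the 35 passed. Their mean level, as log2(FPKM + 1), was 2.83, 2.79 and 3.10 in combination libraries, 2.73, 2.60 and 2.65 in doxorubicin libraries, 1.35, 1.59 and 1.78 in IN10018 libraries and 2.05, 1.87 and 1.98 in DMSO libraries. The 4 treatments did not overlap on this measure, and the order was combination, doxorubicin, DMSO and IN10018 from high to low. IN10018 alone had a negative effect on 34 of the 35 genes, with a median of −0.43, against 49.4% of all genes below 0. With doxorubicin present its effect was positive on 31, with a median of 0.23, which is the median of all genes for that effect, 81.2% of which were above 0. At an adjusted p under 0.05, doxorubicin raised 34 of the 35 genes with IN10018, against 14.6% of all genes. Without IN10018 it raised 20 of the 35, against 5.92% of all genes. In bulk RNA, fewer cycling cells and less RNA per cell cannot be told apart.

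Subunits of the replicative helicase led the list. GINS4, a subunit of the GINS complex that joins the helicase at the fork, had 4.13, 2.91 and 4.87 FPKM in combination libraries, 2.25, 2.41 and 2.27 in doxorubicin libraries, 0.907, 1.03 and 1.36 in IN10018 libraries and 1.97, 1.699 and 2.05 in DMSO libraries. The 4 treatments did not overlap, with combination libraries highest and IN10018 libraries lowest. Its departure was 0.80 (SE 0.24). CDC45, which completes the helicase, had 3.44, 3.83 and 4.76 FPKM in combination libraries, 3.02, 2.705 and 3.17 in doxorubicin libraries, 0.4702, 0.836 and 0.887 in IN10018 libraries and 1.64, 1.81 and 1.72 in DMSO libraries, and the 4 treatments did not overlap. The combination level of CDC45 was 3.98 FPKM, and the level predicted from the single treatments plus the median contrast was 1.97 FPKM, a departure of 0.75 (SE 0.22). Doxorubicin raised CDC45 by 1.53 on the log2 scale with IN10018 (adjusted p = 6.7e-05) and by 0.54 without it (adjusted p = 0.0491; both limma).

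MCM3 and MCM7 are subunits of the helicase ring. MCM3 had 12.99, 12.1 and 15.5 FPKM in combination libraries, 10.05, 10.1 and 10.8 in doxorubicin libraries, 3.48, 8.16 and 7.24 in IN10018 libraries and 11.01, 7.01 and 9.93 in DMSO libraries, and its departure was 0.66 (SE 0.36). MCM7 had 10.1, 14.98 and 17.6 FPKM in combination libraries, 11.6, 9.96 and 10.8 in doxorubicin libraries, 2.65, 2.92 and 4.03 in IN10018 libraries and 4.61, 5.21 and 5.28 in DMSO libraries, and its departure was 0.63 (SE 0.29). Combination libraries lay above all others for MCM3, and IN10018 libraries below all others for MCM7. POLD1, the catalytic subunit of DNA polymerase delta, had 11.01, 25.5 and 30.96 FPKM in combination libraries, 19.8, 16.6 and 19.6 in doxorubicin libraries, 3.66, 3.28 and 3.69 in IN10018 libraries and 3.02, 4.09 and 3.81 in DMSO libraries. Doxorubicin raised POLD1 both with IN10018 (2.26, adjusted p = 2.3e-04, limma) and without it (2.09, adjusted p = 9.4e-04), and its departure was −0.08 (SE 0.40). GMNN, which encodes geminin, the inhibitor of relicensing, had a departure of 0.53 (SE 0.25), with 30.99, 31.1 and 39.3 FPKM in combination libraries, 31.8, 27.6 and 33.8 in doxorubicin libraries, 12.3, 10.9 and 11.8 in IN10018 libraries and 18.5, 21.2 and 17.4 in DMSO libraries.

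The mitotic list covers the spindle, the kinetochore, condensin and cytokinesis. Of its 40 genes, 38 lay above the median of all genes and 13 had a departure of at least 0.5, against 2.03% of all genes. At an unadjusted p under 0.05, 15 were positive, against 4.75% of all genes. On the negative side the count was 0 for either, against 11% and 1.35% of all genes. Mean log2(FPKM + 1) was 3.64, 3.47 and 3.82 in combination libraries, 3.52, 3.37 and 3.37 in doxorubicin libraries, 2.30, 2.72 and 2.87 in IN10018 libraries and 3.14, 2.82 and 3.11 in DMSO libraries. Combination and doxorubicin libraries overlapped at the top, and IN10018 libraries overlapped DMSO libraries only through IN10018 library 3 and DMSO library 2. IN10018 alone had a negative effect on 39 of the 40 genes, with a median of −0.34, and a positive one on 37 with doxorubicin present, with a median of 0.23, the same as the median of all genes, 81.2% of which were above 0. At an adjusted p under 0.05, doxorubicin raised 28 of the 40 with IN10018, against 14.6% of all genes. Without IN10018 it raised 1 of the 40, against 5.92% of all genes. Without IN10018 library 1, the lowest of its treatment on this list, the median departure was 0.28.

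SPC25, part of the NDC80 complex that binds microtubules at the kinetochore, had 16.6, 16.3 and 19.1 FPKM in combination libraries, 16.96, 18.2 and 19.2 in doxorubicin libraries, 5.404, 5.92 and 7.03 in IN10018 libraries and 13.2, 13.9 and 12.4 in DMSO libraries. The combination reached the doxorubicin range and did not pass it, and the IN10018 libraries lay below all 9 others. Its departure was 0.69 (SE 0.23), with 17.3 FPKM observed for the combination and 10.3 FPKM predicted. CENPK, another kinetochore gene, had the largest departure of the list at 0.89 (SE 0.41), but its libraries spread more, with 30.1, 16.2 and 24.5 FPKM in combination libraries, 22.01, 20.3 and 22.6 in doxorubicin libraries, 4.28, 9.88 and 8.46 in IN10018 libraries and 18.8, 12.2 and 17.8 in DMSO libraries. CDCA8 encodes borealin of the chromosomal passenger complex and had 12.01, 10.7 and 13.98 FPKM in combination libraries, 11.2, 9.76 and 9.59 in doxorubicin libraries, 4.998, 5.48 and 5.12 in IN10018 libraries and 8.57, 7.44 and 8.62 in DMSO libraries, with a departure of 0.56 (SE 0.23).

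KIF2C, a kinesin that shortens microtubules, and ANLN, the actin-binding anillin of the cleavage furrow, had departures of 0.65 (SE 0.37) and 0.67 (SE 0.47). Both lay lowest in IN10018 library 1, which is 1 of the 3 libraries that stood apart. Against the direction of the list were SPC24, the partner of SPC25, at −0.20 (SE 0.44) and PTTG1, which encodes securin, at −0.18 (SE 0.33). SPC24 had 26.8, 50.2 and 33.96 FPKM in combination libraries, 45.4, 35.3 and 43.9 in doxorubicin libraries, 21.4, 14.03 and 21.8 in IN10018 libraries and 15.5, 36.5 and 19.8 in DMSO libraries, and DMSO library 2 was the highest DMSO library for both genes.

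Genes around CDK1, the kinase that starts mitosis, followed the same pattern. Of 20 genes tested, 19 lay above the median of all genes and 7 had a departure of at least 0.5, against 2.03% of all genes. At an unadjusted p under 0.05, 11 were positive, against 4.75% of all genes. CDK1 itself had 57.7, 53.3 and 63.4 FPKM in combination libraries, 62.2, 53.7 and 58.2 in doxorubicin libraries, 15.4, 20.3 and 21.6 in IN10018 libraries and 37.7, 37.2 and 37.7 in DMSO libraries. IN10018 libraries lay below all others, DMSO libraries came next, and combination and doxorubicin libraries overlapped at the top. The IN10018 effect on CDK1 was 0.00 with doxorubicin and −0.95 without it (adjusted p = 0.257, limma), and the departure was 0.71 (SE 0.26). Doxorubicin raised CDK1 by 1.57 with IN10018 (adjusted p = 1.4e-04, limma), an effect that is part of the contrast that chose CDK1.

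MYBL2, a transcription factor that switches on late cell-cycle genes, had 62.9, 113 and 121 FPKM in combination libraries, 79.7, 56.5 and 74.1 in doxorubicin libraries, 21.9, 20.6 and 28.4 in IN10018 libraries and 30.96, 44.3 and 32.2 in DMSO libraries, and a departure of 0.78 (SE 0.38). AURKB, the kinase of the chromosomal passenger complex, had 6.65, 9.14 and 10.8 FPKM in combination libraries, 5.54, 4.82 and 6.38 in doxorubicin libraries, 2.17, 2.44 and 3.46 in IN10018 libraries and 3.402, 4.996 and 3.36 in DMSO libraries, and a departure of 0.74 (SE 0.30). At an adjusted p under 0.05, doxorubicin raised 16 of the 20 genes with IN10018, against 14.6% of all genes. Doxorubicin alone had a positive effect on 16 of the 20, against 48.8% of all genes. At that threshold it raised 3 and lowered 1, against 5.92% and 2.1% of all genes. The gene that doxorubicin alone lowered was PLK1, a kinase of mitotic entry. The log2 change of PLK1 was −0.65 (adjusted p = 0.0448, limma), against 0.24 with IN10018 (adjusted p = 0.406). It had 4.81, 5.899 and 6.09 FPKM in combination libraries, 3.91, 2.65 and 3.26 in doxorubicin libraries, 4.15, 3.74 and 6.01 in IN10018 libraries and 5.65, 5.57 and 5.79 in DMSO libraries, and a departure of 0.65 (SE 0.26). Its combination libraries overlapped IN10018 and DMSO libraries and lay above all 3 doxorubicin libraries. CKS1B, a small subunit of CDK complexes, went against the list at −0.38 (SE 0.39), with 100.1, 124 and 94.2 FPKM in combination libraries, 129, 139 and 175 in doxorubicin libraries, 60.05, 37.6 and 42.3 in IN10018 libraries and 45.3, 89.9 and 47.9 in DMSO libraries. DMSO library 2 was its highest DMSO library.

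**Figure D3:**
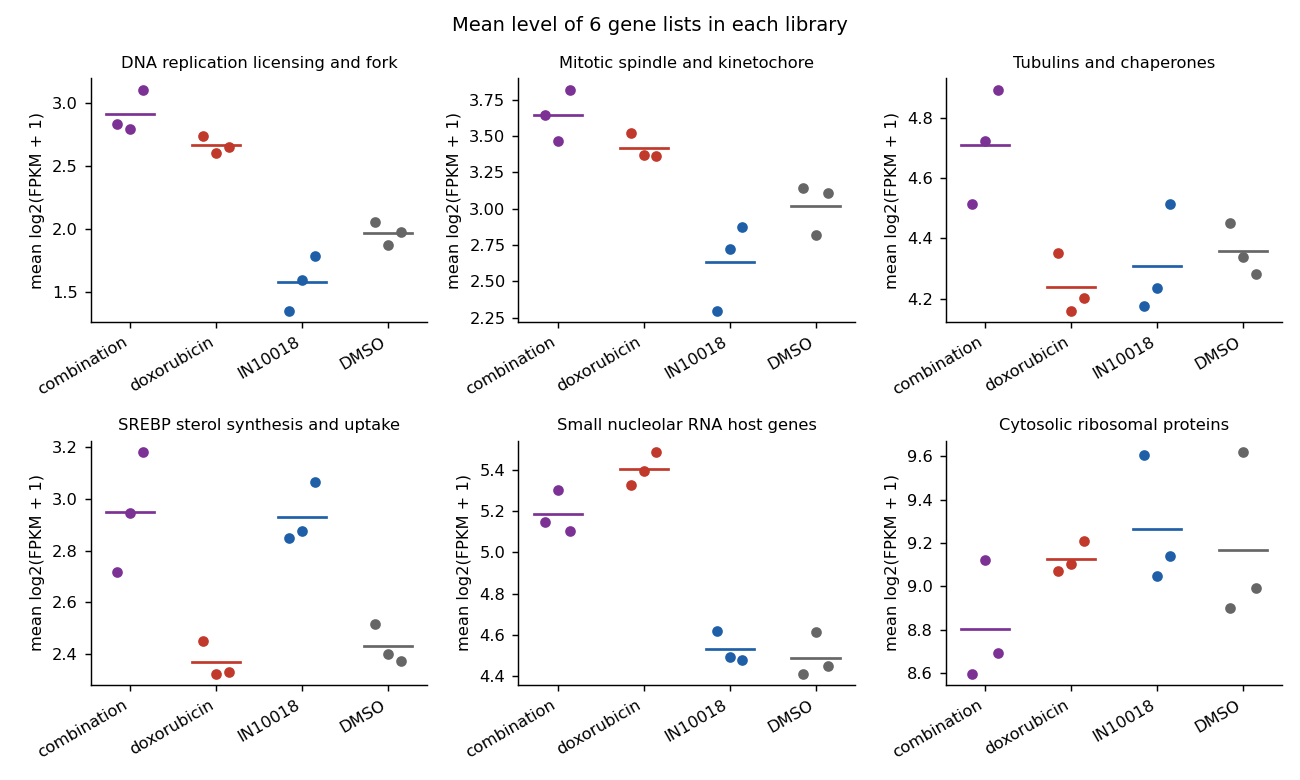
Mean log2(FPKM + 1) of the genes of 6 lists (y axes, which do not start at 0) in each of the 12 libraries, with the mean of the 3 libraries of a treatment as a line. The replication and mitotic lists have their lowest treatment mean with IN10018 and their highest with the combination, while the ribosomal protein list has 1 high library each in IN10018 (9.61) and DMSO (9.62).

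Promoters are shown for the replication and mitotic genes because these lists had the highest departures and carry different short motifs. Windows run from 250 bases before to 50 bases after the start site (RefSeq, GRCh38.p14), and 8041 of the 11301 genes tested matched one by symbol. Capitals mark the letters of the cell-cycle homology region (CHR, TTTGAA), the CCAAT box (CCAAT) and an E2F site (TTCCCGC), searched on both strands. The CHR and CCAAT letters overlap by 1 base in CDCA8. The sequences are at chr10:60778081-60778380 (plus strand) for CDK1, chr2:168890381-168890680 (minus strand) for SPC25, chr1:37692266-37692565 (plus strand) for CDCA8, chr6:52284693-52284992 (minus strand) for MCM3 and chr7:100101348-100101647 (minus strand) for MCM7.
CDK1: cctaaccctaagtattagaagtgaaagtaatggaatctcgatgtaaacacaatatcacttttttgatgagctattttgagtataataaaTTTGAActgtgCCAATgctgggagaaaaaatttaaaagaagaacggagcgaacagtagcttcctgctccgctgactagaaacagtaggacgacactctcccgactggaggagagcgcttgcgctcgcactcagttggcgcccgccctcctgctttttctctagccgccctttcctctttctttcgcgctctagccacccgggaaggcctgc
SPC25: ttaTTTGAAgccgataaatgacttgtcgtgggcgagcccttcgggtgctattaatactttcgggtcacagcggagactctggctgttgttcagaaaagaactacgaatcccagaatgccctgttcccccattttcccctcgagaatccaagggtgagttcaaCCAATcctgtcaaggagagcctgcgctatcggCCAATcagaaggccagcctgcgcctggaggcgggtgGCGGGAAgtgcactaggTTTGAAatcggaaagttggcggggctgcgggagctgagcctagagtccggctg
CDCA8: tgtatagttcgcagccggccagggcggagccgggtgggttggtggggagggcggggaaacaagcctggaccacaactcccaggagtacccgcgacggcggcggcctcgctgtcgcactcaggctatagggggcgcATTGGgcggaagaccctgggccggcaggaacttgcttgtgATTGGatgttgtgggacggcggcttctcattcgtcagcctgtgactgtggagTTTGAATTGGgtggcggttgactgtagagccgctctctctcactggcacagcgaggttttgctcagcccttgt
MCM3: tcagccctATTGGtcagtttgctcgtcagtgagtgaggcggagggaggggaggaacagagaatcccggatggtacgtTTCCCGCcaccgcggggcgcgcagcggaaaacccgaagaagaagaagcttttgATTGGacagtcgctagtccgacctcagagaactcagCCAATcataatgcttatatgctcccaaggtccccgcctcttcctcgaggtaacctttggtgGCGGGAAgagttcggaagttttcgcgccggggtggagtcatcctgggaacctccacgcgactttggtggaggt
MCM7: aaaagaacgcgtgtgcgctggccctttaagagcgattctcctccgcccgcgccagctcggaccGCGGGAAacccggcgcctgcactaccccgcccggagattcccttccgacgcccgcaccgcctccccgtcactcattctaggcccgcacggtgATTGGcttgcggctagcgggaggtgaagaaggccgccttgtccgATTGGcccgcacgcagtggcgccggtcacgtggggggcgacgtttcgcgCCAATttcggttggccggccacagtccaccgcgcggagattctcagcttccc

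The CHR letters stood in 25 of the 34 mitotic windows (73.5%), in 8 of the 16 G2 entry windows (50%) and in 0 of the 31 replication windows, against 9.3% of all windows. The E2F letters stood in 15 of the 31 replication windows (48.4%), in 3 of the 34 mitotic windows (8.82%) and in 3 of the 16 G2 entry windows (18.8%), against 11.3% of all. CCAAT letters stood in 19 of 31 replication, 24 of 34 mitotic and 11 of 16 G2 entry windows, against 37.6% of all windows. The lists were written as lists of cell-cycle genes, so these shares describe the lists, and a match of letters is not a bound site.

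Among protein-coding genes with a mean of at least 5 FPKM (3949 genes), the departure kept its sign in all 81 choices of libraries in 16 genes on the positive side and 83 on the negative side. TUBA1B, an alpha-tubulin gene (GENCODE 29, chr12:49127782-49131397), led the positive side of these at 1.09 (SE 0.31). It had 34.5, 46.6 and 54.1 FPKM in combination libraries, 28.8, 25.6 and 29.1 in doxorubicin libraries, 13.3, 13.96 and 19.8 in IN10018 libraries and 24.7, 30.6 and 21.6 in DMSO libraries, so combination libraries lay above the 9 others and IN10018 libraries below them. FAM83D, a spindle protein gene, had 9.83, 9.09 and 10.9 FPKM in combination libraries, 6.96, 6.99 and 5.32 in doxorubicin libraries, 2.73, 3.72 and 4.197 in IN10018 libraries and 6.42, 4.24 and 6.09 in DMSO libraries and a departure of 0.85 (SE 0.27). PBK, a kinase of dividing cells, had 32.9, 29.1 and 33.05 FPKM in combination libraries, 26.5, 23.3 and 27.4 in doxorubicin libraries, 9.701, 10.9 and 13.1 in IN10018 libraries and 18.8, 21.1 and 19.4 in DMSO libraries and a departure of 0.82 (SE 0.24). The IN10018 libraries of FAM83D and PBK lay below all others.

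ZWINT, a kinetochore scaffold, and DLGAP5, a spindle assembly protein, had departures of 0.72 (SE 0.30) and 0.62 (SE 0.26). Outside cell division, SAP30, a subunit of the Sin3 histone deacetylase complex, stood at 0.76 (SE 0.29) and RIPK2, a kinase below the NOD receptors, at 0.64 (SE 0.24). DHRS2, a short-chain dehydrogenase gene, had 53.5, 52.9 and 55.3 FPKM in combination libraries, 33.6, 30.1 and 30.98 in doxorubicin libraries, 19.1, 18.3 and 25.03 in IN10018 libraries and 23.2, 19.4 and 23.5 in DMSO libraries. Its combination libraries lay above all others, IN10018 and DMSO libraries overlapped, and the departure was 0.60 (SE 0.25).

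**Figure D4:**
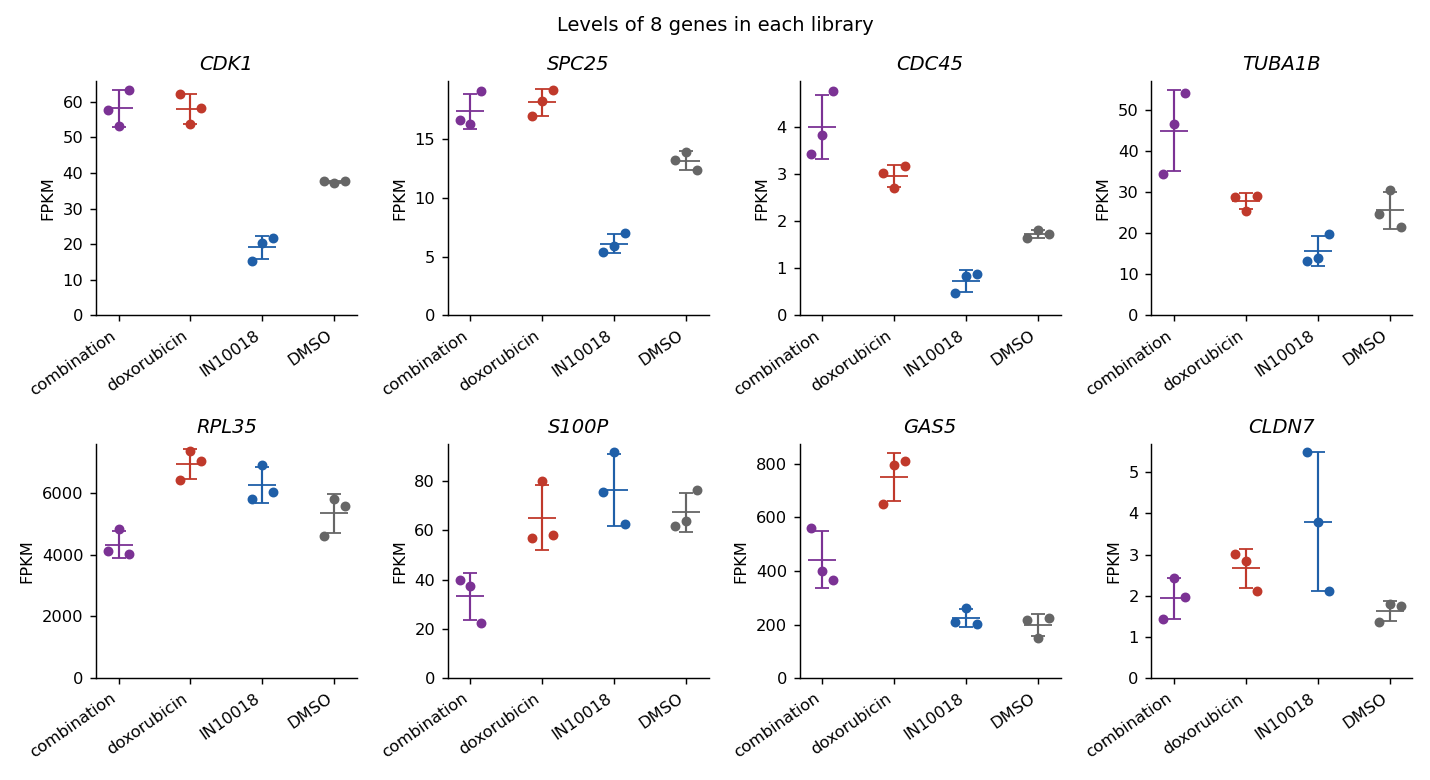
FPKM (y axes) of 8 genes in each of the 12 libraries, with the mean and SD of the 3 libraries of a treatment. CDK1, SPC25, CDC45 and TUBA1B are lowest in IN10018 libraries, and all combination values of S100P lie below those of the other treatments.

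Of 23 tubulin and tubulin-folding genes, 20 lay above the median of all genes. A departure of at least 0.5 was held by 3 of the 23, against 2.03% of all genes. With doxorubicin present, the IN10018 effect was positive on all 23, against 81.2% of all genes, with a median of 0.47 in the list and 0.23 over all genes. Without doxorubicin the median was −0.09 in the list and 0.00 over all genes. TUBA1C, another alpha-tubulin gene, had 26.8, 39.9 and 42.0046 FPKM in combination libraries, 24.5, 18.6 and 22.8 in doxorubicin libraries, 19.99, 17.3 and 25.6 in IN10018 libraries and 24.5, 26.9 and 21.3 in DMSO libraries and a departure of 0.64 (SE 0.31). TUBB2A, a beta-tubulin gene, and TUBG1, the gamma-tubulin that nucleates microtubules, had departures of 0.59 (SE 0.31) and 0.49 (SE 0.31). Tubulin genes are near-identical in sequence, so reads may be divided between them. The folding cofactors TBCB, at −0.31 (SE 0.56), and TBCA, at −0.11 (SE 0.27), went against the list.

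Deoxynucleotide supply genes were divided. Of 17 genes, 13 lay above the median of all genes. A departure of at least 0.5 was held by 2 and one of −0.5 or less by 2, against 2.03% and 11% of all genes. RRM2, the regulated subunit of ribonucleotide reductase, had 7.66, 6.21 and 9.51 FPKM in combination libraries, 8.46, 7.6 and 7.81 in doxorubicin libraries, 0.7197, 1.699 and 1.81 in IN10018 libraries and 4.14, 3.21 and 4.32 in DMSO libraries. IN10018 libraries lay below all others, combination and doxorubicin libraries overlapped, and the departure was 0.76 (SE 0.30). TYMS, thymidylate synthase, had 7.41, 6.02 and 9.25 FPKM in combination libraries, 4.98, 5.03 and 5.84 in doxorubicin libraries, 0.851, 2.11 and 2.62 in IN10018 libraries and 3.41, 2.88 and 2.54 in DMSO libraries and a departure of 0.70 (SE 0.33). DCK, deoxycytidine kinase, stood at 0.45 (SE 0.32). NME1, a nucleoside diphosphate kinase, and DTYMK, thymidylate kinase, stood at −0.62 (SE 0.41) and −0.58 (SE 0.58), and DTYMK had 47.5, 120.1 and 77.1 FPKM in combination libraries, 115, 99.4 and 115 in doxorubicin libraries, 80.3, 34.4 and 56.9 in IN10018 libraries and 36.7, 112 and 56.9 in DMSO libraries. NME1 stood at −0.23 without IN10018 library 1, and DTYMK ranged from −1.08 without DMSO library 2 to −0.16 without DMSO library 1. Without IN10018 library 1 the median of the list was 0.04.

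The 13 protein genes of the mitochondrial genome had a median departure of 0.33 (0.73 with quantile normalization), and 11 lay above the median of all genes. A departure of 0.5 or more was held by 0 and one of −0.5 or less by 0, against 2.03% and 11% of all genes. At an unadjusted p under 0.05, 9 were positive and 0 negative, against 4.75% and 1.35% of all genes. Doxorubicin alone had a negative effect on all 13, with a median of −0.45, against a median of −0.01 over all genes. With IN10018 present its effect was positive on 10, with a median of 0.15, near the values of all genes, 69.7% positive with a median of 0.20. At an adjusted p under 0.05, 0 of the 13 passed in either. Of all genes, 14.6% were called higher and 1.43% lower with IN10018, and 5.92% and 2.1% without it. MT-ND4, a subunit of complex I, had 903, 1093 and 1435 FPKM in combination libraries, 860.0, 861 and 690.3 in doxorubicin libraries, 892, 1022 and 1125 in IN10018 libraries and 1321, 1012 and 1119 in DMSO libraries. Doxorubicin libraries lay below all others, which overlapped each other, and the departure was 0.43 (SE 0.28). MT-ND4L, which overlaps MT-ND4, stood at 0.48 (SE 0.27), MT-ND5 at 0.42 (SE 0.29) and MT-ND1 at 0.41 (SE 0.28), all complex I subunits. MT-ND3, also of complex I, at −0.29 (SE 0.20) and MT-CO3, of complex IV, at −0.01 (SE 0.24) lay below the median.

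Hypoxia response genes lay at 0.19, with 16 of 19 above the median of all genes. At 0.5 or more stood 0 and at −0.5 or less 1, against 2.03% and 11% of all genes. LOX, which cross-links collagen, had 9.03, 6.15 and 8.66 FPKM in combination libraries, 6.19, 4.87 and 4.04 in doxorubicin libraries, 3.46, 6.98 and 6.71 in IN10018 libraries and 6.9, 3.66 and 7.31 in DMSO libraries. All treatments overlapped for LOX, IN10018 library 1 and DMSO library 2 were the lowest of their treatments, and the departure was 0.37 (SE 0.39). ADM, the adrenomedullin gene, had 4.795, 6.21 and 6.9 FPKM in combination libraries, 3.31, 2.99 and 2.97 in doxorubicin libraries, 2.196, 2.62 and 2.69 in IN10018 libraries and 2.97, 1.82 and 1.56 in DMSO libraries, with combination libraries above all others and a departure of 0.32 (SE 0.26). HIF1A, the oxygen-regulated factor itself, and BHLHE40, 1 of its targets, stood at 0.31 (SE 0.52) and 0.27 (SE 0.35). ANKRD37 went against the list at −0.82 (SE 0.32). Without IN10018 library 1 the median of the list was 0.04.

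On the negative side, cytosolic ribosomal protein genes departed most. Of 54 genes, 50 lay at or below the median of all genes, 34 had a departure of −0.5 or less and 0 one of 0.5 or more, against 11% and 2.03% of all genes. At an unadjusted p under 0.05, 6 were negative and 0 positive, against 1.35% and 4.75% of all genes. The departure of 3 kept its negative sign in all 81 choices of libraries, against 2.05% of all genes. The IN10018 effect had a median of −0.32 with doxorubicin and 0.09 without it, and was negative on 45 of the 54 with doxorubicin, against 18.8% of all genes, and on 23 without it. Mean log2(FPKM + 1) was 8.60, 9.12 and 8.69 in combination libraries, 9.07, 9.10 and 9.21 in doxorubicin libraries, 9.61, 9.05 and 9.14 in IN10018 libraries and 8.90, 9.62 and 8.99 in DMSO libraries. The libraries that stood apart within their treatments, combination 2, IN10018 1 and DMSO 2, were the highest of each on this list. The median was −0.23 with quantile normalization, −0.84 without those 3 libraries, −0.39 without IN10018 library 1 and −0.91 without DMSO library 2.

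RPL35, of the large subunit, had 4107, 4821 and 4026 FPKM in combination libraries, 6427, 7374 and 7034 in doxorubicin libraries, 5819, 6909 and 6035 in IN10018 libraries and 4623, 5819 and 5576 in DMSO libraries. Combination libraries overlapped DMSO libraries and lay below all doxorubicin and IN10018 libraries, and the departure was −1.16 (SE 0.21). With IN10018 present, doxorubicin lowered RPL35, with a log2 change of −0.54 (adjusted p = 0.0239, limma), against 0.38 without it (adjusted p = 0.132). Both effects are parts of the contrast that chose RPL35. RPS9, of the small subunit, had 628, 1334 and 877 FPKM in combination libraries, 1325, 1386 and 1405 in doxorubicin libraries, 1795, 1216 and 1529 in IN10018 libraries and 974, 1328 and 1274 in DMSO libraries and a departure of −1.19 (SE 0.35). RPS21 stood at −1.11 (SE 0.30). RPS16 had 187, 494 and 203 FPKM in combination libraries, 419, 454 and 536 in doxorubicin libraries, 960.2, 409 and 504 in IN10018 libraries and 246, 1149 and 302 in DMSO libraries, with all treatments overlapping and the same 3 libraries high, and its departure of −1.46 (SE 0.74) did not keep its sign. RPL7 at 0.26 and RPL3 at 0.19 were the largest in the other direction. Many ribosomal protein genes have processed copies in the genome, so their FPKM are uncertain.

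Transcript length and GC content moved with the departure. In 5 bins of about equal size, the shortest genes, up to 716 bases, had a median departure of −0.17 and the longest one of 0.06. The bin lowest in GC content had a median of 0.08 and the highest one of −0.14. The median transcript length was 708.5 bases for ribosomal protein genes, 702.5 for nuclear encoded respiratory genes and 666 for histones, against 1834.5 for replication genes. With length and GC content taken out as a trend over all genes, the ribosomal protein list stood at −0.44, the histones at −0.37, the nuclear respiratory genes at −0.10 and the replication list at 0.39. The mitotic list then stood at 0.29, the G2 entry list at 0.32 and the hypoxia list at 0.13, all lower than before. The mitochondrially encoded list stood at 0.33, the tubulin list at 0.31 and the deoxynucleotide list at 0.20.

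Small nucleolar RNA host genes carry snoRNAs, which guide rRNA modification, in their introns. Of 18 genes, 14 lay below the median of all genes and 9 had a departure of −0.5 or less, against 11% of all genes. At an unadjusted p under 0.05, 2 were negative, against 1.35% of all genes. GAS5, a growth arrest transcript, had 562, 400.4 and 365 FPKM in combination libraries, 649, 797 and 809 in doxorubicin libraries, 209, 262 and 200.5 in IN10018 libraries and 216, 149.7 and 225 in DMSO libraries. Doxorubicin raised GAS5 with IN10018 by 0.96 (adjusted p = 0.0106, limma) and without it by 1.94 (adjusted p = 3.1e-04), and combination libraries lay above IN10018 and DMSO libraries and below all doxorubicin libraries. Its departure was −1.22 (SE 0.32). Doxorubicin lowered SNHG19 in the presence of IN10018 (−1.06, adjusted p = 8.2e-04, limma). SNHG19 had 365, 426 and 379 FPKM in combination libraries, 556, 542 and 569 in doxorubicin libraries, 908, 723 and 821 in IN10018 libraries and 674, 800.1 and 764 in DMSO libraries, and combination libraries lay below all others. Doxorubicin libraries lay in turn below all DMSO libraries, so SNHG19 was lower with doxorubicin alone too. Its departure was −0.89 (SE 0.23). SNHG29 and SNHG15 stood at −1.24 (SE 0.53) and −0.82 (SE 0.57) with wide spread. NOP56 at 0.19 (SE 0.25) and TAF1D at 0.10 (SE 0.36), protein-coding hosts, lay in the other direction.

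Histone genes of S phase had a median of −0.53. Of 20 genes, 10 stood at −0.5 or less and 3 at 0.5 or more, against 11% and 2.03% of all genes. Most of their mRNAs lack poly(A) tails, so their FPKM also depend on how far the library preparation kept them. H1-5, a linker histone gene, had 0.447, 2.05 and 2.05 FPKM in combination libraries, 3.85, 2.89 and 4.296 in doxorubicin libraries, 1.45, 2.92 and 1.29 in IN10018 libraries and 1.06, 1.04 and 0.956 in DMSO libraries. Doxorubicin alone raised H1-5 by 1.203 (adjusted p = 0.0189, limma), against −0.24 with IN10018 (adjusted p = 0.609), and the departure was −1.69 (SE 0.39). H1-2 at −1.57 (SE 0.87) was high in IN10018 library 1 and DMSO library 2. H2AC8 and H3C10 stood at −1.13 (SE 0.58) and −0.99 (SE 0.36), and H2AC4 and H4C3 at 0.69 (SE 0.45) and 0.51 (SE 0.56). H4C3 had 11298, 5146 and 4786 FPKM in combination libraries, 5298, 5347 and 6006 in doxorubicin libraries, 783, 1475 and 2819.6 in IN10018 libraries and 2430.4, 1664 and 2389 in DMSO libraries. Histone genes of a class are near-identical, so reads may be divided between them.

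Respiratory subunits encoded in the nucleus lay below the median, unlike those of the mitochondrial genome. Of 38 genes, 26 lay at or below it, and the median contrast itself was 0.01. A departure of −0.5 or less was held by 11 and one of 0.5 or more by 0, against 11% and 2.03% of all genes. COX5B, a subunit of complex IV, had 1491, 1822 and 1256 FPKM in combination libraries, 2111, 2226 and 2376 in doxorubicin libraries, 2648, 2641 and 2404 in IN10018 libraries and 1713, 2434 and 2109 in DMSO libraries. With IN10018 present, doxorubicin lowered COX5B, with a log2 change of −0.77 (adjusted p = 0.0103, limma), against 0.11 without it (adjusted p = 0.767). Both effects are parts of the contrast that chose COX5B, and the departure was −1.13 (SE 0.25). NDUFA2, of complex I, had 189, 229.6 and 168 FPKM in combination libraries, 291, 319 and 298 in doxorubicin libraries, 247, 220.3 and 219 in IN10018 libraries and 179.5, 258 and 207 in DMSO libraries and a departure of −0.99 (SE 0.27). NDUFA3, of complex I and outside the list, stood at −1.29 (SE 0.35). COX6B1 and COX6A1, of complex IV, stood at −1.11 (SE 0.55) and −0.91 (SE 0.42), with IN10018 library 1 and DMSO library 2 high. UQCRB, of complex III, and SDHD, of complex II, lay above the median at 0.26 and 0.25. The list median was −0.03 without IN10018 library 1 and −0.39 without DMSO library 2.

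Sterol genes are controlled by the SREBP factors. The median IN10018 effect on the 21 genes was 0.55 with doxorubicin and 0.55 without it, positive on 20 and on 21 of them. Over all genes the median IN10018 effect was 0.23 with doxorubicin and 0.00 without it. The median contrast of the list was 0.06 and its median departure −0.18. Mean log2(FPKM + 1) was 2.72, 2.95 and 3.18 in combination libraries, 2.45, 2.32 and 2.33 in doxorubicin libraries, 2.85, 2.88 and 3.07 in IN10018 libraries and 2.52, 2.40 and 2.37 in DMSO libraries, and the libraries with IN10018 lay above those without it. IDI1, which makes the isoprene donor for sterols, had 8.77, 9.53 and 12.2 FPKM in combination libraries, 7.502, 6.49 and 6.75 in doxorubicin libraries, 11.9, 9.68 and 11.04 in IN10018 libraries and 6.56, 7.101 and 5.503 in DMSO libraries and a departure of −0.45 (SE 0.25). TM7SF2, a sterol reductase, stood at −0.68 (SE 0.37), MVD, of the mevalonate pathway, at −0.42 (SE 0.30) and NSDHL, a sterol dehydrogenase, at −0.41 (SE 0.27). ACAT2, an acetyl-CoA acetyltransferase, and SC5D, a sterol desaturase, stood at 0.32 (SE 0.35) and 0.16 (SE 0.30). Without combination library 1 the list median was −0.05.

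INSIG1, the sterol sensor that holds back SREBP, had 3.25, 2.87 and 4.08 FPKM in combination libraries, 0.766, 0.869 and 1.002 in doxorubicin libraries, 3.25, 5.42 and 5.69 in IN10018 libraries and 1.52, 1.26 and 1.76 in DMSO libraries. The combination level was 3.37 FPKM, with 4.04 FPKM predicted from the single treatments plus the median contrast. Its departure was −0.21 (SE 0.27), while the contrast itself was 0.04. SCD, the stearoyl-CoA desaturase, had 22.4, 20.1 and 26.6 FPKM in combination libraries, 7.88, 6.89 and 5.44 in doxorubicin libraries, 36.4, 51.6 and 47.9 in IN10018 libraries and 12.8, 7.68 and 12.6 in DMSO libraries. The IN10018 effect on SCD was 1.64 with doxorubicin (adjusted p = 0.0504, limma) and 1.96 without it (adjusted p = 0.0102), and its departure was −0.57 (SE 0.32).

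The BCL2 family, which guards or opens the mitochondrial outer membrane in apoptosis, had a median departure of −0.20 and a median contrast of 0.04. Of 16 genes, 5 lay above the median of all genes. At 0.5 or more stood 0 and at −0.5 or less 3, against 2.03% and 11% of all genes. The pro-apoptotic members BIK, BAD, BAX and BBC3 stood at −0.76 (SE 0.38), −0.63 (SE 0.32), −0.54 (SE 0.44) and −0.48 (SE 0.31). PMAIP1, which encodes the pro-apoptotic NOXA, had 33.4, 30.1 and 34.8 FPKM in combination libraries, 30.3, 25.3 and 27.2 in doxorubicin libraries, 16.9, 14.1 and 15.7 in IN10018 libraries and 17.4, 23.5 and 21.4 in DMSO libraries. Doxorubicin raised PMAIP1 with IN10018 by 1.03 (adjusted p = 0.00174, limma), against 0.398 without it (adjusted p = 0.204), and its departure was 0.39 (SE 0.25). BCL2L2, which protects cells, stood at 0.44 (SE 0.36). Without combination library 1 the list median was −0.07, and without combination library 2 it was −0.30.

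Keratin and junction genes had a median of −0.11. Of 20 genes, 5 stood at −0.5 or less and 1 at 0.5 or more, against 11% and 2.03% of all genes. CLDN7, a tight junction claudin, had 1.42, 2.43 and 1.96 FPKM in combination libraries, 3.02, 2.85 and 2.12 in doxorubicin libraries, 5.49, 3.796 and 2.12 in IN10018 libraries and 1.35, 1.804 and 1.75 in DMSO libraries, where the IN10018 libraries spread widely, and its departure was −1.38 (SE 0.33). CLDN3 had 10.8, 17.7 and 18.7 FPKM in combination libraries, 17.6, 12.6 and 12.2 in doxorubicin libraries, 9.504, 8.21 and 8.01 in IN10018 libraries and 5.23, 4.84 and 4.38 in DMSO libraries. Doxorubicin raised CLDN3 with IN10018 by 0.77 (adjusted p = 0.0268, limma) and without it by 1.37 (adjusted p = 0.00231), and combination and doxorubicin libraries overlapped. KRT7 and KRT19, keratins of simple epithelia, stood at −1.15 (SE 0.42) and −0.60 (SE 0.42). CLDN1 went the other way at 0.55 (SE 0.37), with 46.2, 38.1 and 51.2 FPKM in combination libraries, 35.02, 35.5 and 27.4 in doxorubicin libraries, 3.97, 5.93 and 7.23 in IN10018 libraries and 8.18, 4.62 and 10.1 in DMSO libraries, so that combination libraries lay above all others and IN10018 and DMSO libraries overlapped. DSG2, a desmosomal cadherin, stood at 0.19 (SE 0.44).

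Other large negative departures were spread over several functions. S100A4, a calcium-binding protein of motile cells, had 1523, 3085 and 2148 FPKM in combination libraries, 3112, 3318 and 3684 in doxorubicin libraries, 5307, 3157 and 3781 in IN10018 libraries and 2061, 3377 and 2476 in DMSO libraries and a departure of −1.51 (SE 0.38). S100P, another S100 protein, had 40.03, 37.4 and 22.4 FPKM in combination libraries, 56.96, 80.2 and 57.98 in doxorubicin libraries, 75.4, 91.7 and 62.4 in IN10018 libraries and 61.8, 63.6 and 76.4 in DMSO libraries. Its combination libraries lay below all 9 others, with 32.3 FPKM observed and 86.04 FPKM predicted, a departure of −1.39 (SE 0.35). Doxorubicin lowered S100P with IN10018, with a log2 change of −1.203 (adjusted p = 0.00526, limma), and the change without IN10018 was −0.06 (adjusted p = 0.919). Both effects are parts of the contrast that chose S100P. S100A4 overlaps the gene S100A3, so their reads may be divided between them. S100A5, from the same gene family, stood at −1.15 (SE 0.34).

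TMSB10, a thymosin that binds free actin, had 4455, 6249 and 5253 FPKM in combination libraries, 6991, 7547 and 7837 in doxorubicin libraries, 11070.2, 7457 and 7992 in IN10018 libraries and 5944, 8098 and 6338 in DMSO libraries and a departure of −1.12 (SE 0.26). PYCR1, which makes proline in the mitochondrion, had 22.9, 46.7 and 24.7 FPKM in combination libraries, 36.2, 37.9 and 36.6 in doxorubicin libraries, 36.1, 28.3 and 33.0008 in IN10018 libraries and 17.4, 21.1 and 20.7 in DMSO libraries and a departure of −1.23 (SE 0.34). C19orf53 at −1.26 (SE 0.37) and TRAPPC6A, a vesicle tethering subunit, at −1.07 (SE 0.32) complete the 12 largest of the protein-coding genes with at least 5 FPKM whose sign was kept. All 12 were more negative without the 3 libraries that stood apart, and less negative with length and GC content taken out. They ranged from −1.79 for S100A4 to −1.17 for TRAPPC6A without those libraries, and from −1.36 for S100P to −0.78 for RPS21 with length and GC content taken out.

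The drug targets come last. PTK2, which encodes FAK, had 3.38, 2.61 and 3.69 FPKM in combination libraries, 2.66, 2.21 and 2.12 in doxorubicin libraries, 1.94, 3.57 and 3.92 in IN10018 libraries and 3.95, 2.002 and 3.65 in DMSO libraries, with all 4 treatments overlapping and a departure of 0.12 (SE 0.33). TOP2B, the topoisomerase II of resting cells, had 11.6, 7.92 and 10.2 FPKM in combination libraries, 9.51, 8.87 and 7.11 in doxorubicin libraries, 6.83, 13.9 and 13.3 in IN10018 libraries and 13.1, 6.899 and 13.3 in DMSO libraries and a departure of −0.07 (SE 0.40). TOP2A, the form of dividing cells, had 42.9983, 38.4 and 50.1 FPKM in combination libraries, 44.3, 36.2 and 34.2 in doxorubicin libraries, 9.46, 18.8 and 20.8 in IN10018 libraries and 28.2, 16.1 and 33.4 in DMSO libraries. Doxorubicin raised TOP2A with IN10018 by 1.43 (adjusted p = 0.00613, limma), against 0.596 without it (adjusted p = 0.267), and its departure was 0.59 (SE 0.43).

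CALR encodes calreticulin, which dying cells expose in immunogenic cell death, and had 45.5, 57.02 and 68.1 FPKM in combination libraries, 38.1, 38.3 and 33.3 in doxorubicin libraries, 41.3, 38.8 and 43.6 in IN10018 libraries and 47.8, 41.1 and 39.6 in DMSO libraries. Its departure was 0.41 (SE 0.27), with the doxorubicin libraries below all others. The 18 immunogenic cell death signal genes tested had a median departure of 0.09, with 11 above the median of all genes. CDKN1A, the p21 inhibitor of CDKs, had 12.2, 26.9 and 26.9 FPKM in combination libraries, 21.1, 13.8 and 19.6 in doxorubicin libraries, 4.43, 2.53 and 4.01 in IN10018 libraries and 2.34, 3.15 and 2.96 in DMSO libraries. Doxorubicin raised CDKN1A by 2.25 with IN10018 (adjusted p = 2.4e-04, limma) and by 2.31 without it (adjusted p = 5.2e-04), a departure of −0.31 (SE 0.40). CXCL8, the chemokine interleukin 8, had 679, 582 and 1129.8 FPKM in combination libraries, 713, 754 and 624 in doxorubicin libraries, 10.7, 13.6 and 29.1 in IN10018 libraries and 33.7, 32.5 and 37.6 in DMSO libraries. It rose by 5.47 with IN10018 (adjusted p = 1.6e-06) and by 4.29 without it (adjusted p = 1.6e-05), and the departure was 0.93 (SE 0.45). Combination and doxorubicin libraries overlapped for CXCL8, while IN10018 libraries lay below DMSO libraries.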

How the data were processed

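RNA from SK-OV-3 cells was sequenced in 12 libraries, 3 for each of 4 treatments. The authors deposited FPKM per gene and library, made with TopHat and Cuffdiff on hg38 according to the methods of the study and the submitters' processing notes. Their versions, the annotation and the strand setting are not stated in the sources used here. Low FPKM values were whole multiples of the value of 1 read in 24090 of the 24090 genes examined (tolerance 1e-05), which gave 8033951 to 12901505 reads per library. How precise a value is depends on this depth, and low genes are the least certain.

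Rows with 1 symbol were summed, which left 59391 genes. A gene was tested if 3 or more libraries reached 1 FPKM. A model with 4 treatments (8 residual degrees of freedom) was fitted to log2(FPKM + 1) with limma 3.58.1 in R 4.3.3, with a mean-dependent prior, and p-values were adjusted by the Benjamini-Hochberg method over all genes tested. Fold changes on this scale understate the change of low genes. Tests are two-sided and compare the contrast with 0, not with its median. The fit was tested on simulated data. Gene types, positions, lengths and GC content came from GENCODE 29 (GRCh38), and 30 named genes overlap another gene tested, 10 of them on the same strand.

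Named were the 12 largest positive and 12 largest negative departures among protein-coding genes with a mean of at least 5 FPKM whose sign was kept in all 81 choices of libraries. For each list described, up to 4 members in the direction of its median and up to 2 in the other were added (mean of at least 2 FPKM), besides PTK2, TOP2A, TOP2B, CALR, CDKN1A, CXCL8, SCD and INSIG1 and any gene called, which makes 109 genes, some of which are not reported here. The interaction, the lists and the tests were chosen with earlier results of these data known. Alternatives covered the pseudocount, filters, scaling, a replicate block, array weights, limma-voom on recovered reads, each library left out and a correction for length and GC content.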

Additional observations from a re-analysis of the deposited data

How the results depend on the processing

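The contrast called 2 genes without a filter and 1 gene each with median-ratio scaling, quantile normalization and array weights, and 0 to 0 when each library was left out. Its median over all genes was 0.037 without a filter, 0.025 with median-ratio scaling and 0.0498 with quantile normalization, and 0.16 to 0.32 when each library was left out. Doxorubicin with IN10018 changed 934 genes with a filter of 5 FPKM, 2753 with the length and GC correction and 881 to 2207 with a library left out. Doxorubicin without IN10018 changed 491 without a filter, 1489 with quantile normalization, 3021 without the 3 libraries that stood apart, 4689 with array weights, 1634 with the length and GC correction and 363 to 1284 with a library left out. IN10018 with doxorubicin changed 4 genes with a pseudocount of 0.1 and 4 with 0.5, 1 without a filter, 1 with a filter of 5 FPKM, 5 with median-ratio scaling, 4 with quantile normalization, 1321 without the 3 libraries, 2262 with array weights, 2 with limma-voom, 9 with the length and GC correction and 0 to 676 with a library left out. IN10018 without doxorubicin changed 12 without a filter, 2 with median-ratio scaling, 4 with quantile normalization, 2 without the 3 libraries, 20 with array weights, 2 with the length and GC correction and 0 to 2 with a library left out. The cause of these moves was not tested. With the replicate number as a block, doxorubicin without IN10018 changed 556 genes, IN10018 without doxorubicin 0, and the contrast called 0. The labels do not say whether libraries of the same number belong together. Only 5 of 18 same-numbered pairs correlated above 0.1, and 1 library was closest to its own number. The axis on which 3 libraries stood apart held 55.4% of the variance within treatments, so these correlations cannot decide it.

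All 14 list medians described kept their sign in the 24 alternatives tried, except the sterol list, at 0.02 without a filter, where the median of all genes is itself lower. Their sizes moved more, and with quantile normalization the ribosomal protein list stood at −0.23, the nuclear encoded respiratory list at −0.07 and the mitochondrially encoded list at 0.73. Departures of the following named genes changed sign. Without a filter these were INSIG1 at 0.0014, MT-CO3 at 0.20, POLD1 at 0.13, PTTG1 at 0.031, SPC24 at 0.0091, TBCA at 0.10 and TOP2B at 0.13. With quantile normalization they were MT-CO3 at 0.49, MT-ND3 at 0.12, PTTG1 at 0.15 and TBCA at 0.17. Without the 3 libraries, which were picked from these data, it was TOP2B at 0.012. With array weights they were H4C3 at −0.12, POLD1 at 0.13, SDHD at −0.0063 and TAF1D at −0.0018. With the length and GC correction, chosen after seeing the data, they were MT-CO3 at 0.076, POLD1 at 0.082, SPC24 at 0.019 and TBCA at 0.033. With a library left out, the ranges were CDKN1A from −0.51 to 0.011, DSG2 from −0.039 to 0.46, HIF1A from −0.033 to 0.61, MT-CO3 from −0.21 to 0.17, POLD1 from −0.29 to 0.31, PTK2 from −0.031 to 0.26, PTTG1 from −0.51 to 0.042, SPC24 from −0.62 to 0.11, TAF1D from −0.088 to 0.26, TBCA from −0.30 to 0.013, TBCB from −0.80 to 0.11 and TOP2B from −0.29 to 0.13.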
